A study of Mus musculus with 43 samples.

Results

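The transcripts described here are 10 genes that mark astrocytes, the glial cells whose endfeet wrap brain vessels, measured in RNA of sorted mouse brain endothelial cells (EC). The members are Slc1a2, Slc1a3, Aldoc, Atp1b2, Mlc1, Slc4a4, Aqp4, Gja1, Gjb6 and Gfap, each taken by its exact symbol from 54532 genes in the count table, and each found once. All 10 were among the 29120 genes that passed the filter on low values, at least 0.5 CPM in at least 1 library. CPM is the usual scaling of a gene's count to the total of its library, with totals here adjusted by TMM, which adjusts for a few genes that take many reads. How far these transcripts vary with strain, region, sex and the word high or low in a library's title is the question that the labels allow to be asked.

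EC were sorted by flow cytometry from dissociated cortex or hippocampus of 2-month-old mice as CD31+, CD45- and CD11b- cells, a gate that removes immune cells and holds no marker against astrocytes. The 43 libraries came from 5 long-inbred strains, 129S1/SvImJ (9 libraries), A/J (5), C57BL/6J (6), DBA/2J (5) and NOD/ShiLtJ (6), and 2 recently wild-derived strains, CAST/EiJ (6) and WSB/EiJ (6). Of these, 27 were from male and 16 from female mice, and 21 were from cortex and 22 from hippocampus. The titles carry the tag high in 14 male and 15 female libraries and low in 13 male libraries and 1 female library. The labels do not say what the tag means, and the tag is therefore compared within males. The labels name no transgene, drug or other treatment and do not give the mouse, so that p-values measure the spread between these libraries.

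Library totals ran from 1626534 to 49372356 counts, with a median of 5790701. Endothelial markers were present in every group: Pecam1, which encodes the CD31 of the gate, lay between 446 and 1100 CPM. The 8 genes of the microglial list summed to between 4.65 and 151 CPM, with Tmem119 at 0 counts in 28 and C1qb in 26 of 43 libraries. Of the oligodendrocyte list, Mog was at 0 in 30 libraries and Mag in 25. Of the neuronal list, no marker was at 0 in more than 9 libraries, and its 6 genes summed to between 34.5 and 799.7 CPM. The 10 astrocyte transcripts summed to between 1220 and 20634 CPM.

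Astrocytes clear glutamate, buffer potassium and water and supply vessels with signals. Slc1a2 and Slc1a3 encode the glutamate transporters GLT-1 and GLAST, Aqp4 encodes the water channel of the endfoot, and Mlc1 encodes an endfoot membrane protein. Atp1b2 encodes a beta subunit of the sodium pump, Slc4a4 a sodium bicarbonate cotransporter and Aldoc the brain form of aldolase. Gja1 and Gjb6 encode the gap junction proteins connexin 43 and connexin 30, and Gfap encodes the intermediate filament protein of astrocytes. Gja1 is also known from cells of the vessel wall. The astrocyte origin of the RNA rests on this general knowledge, and its source in the sorted material was not tested.

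Slc1a2 was the most abundant member, by counts and per length. It made up between 54.1% and 84.2% of the summed CPM of the 10 transcripts, with a median of 73.2%. All 10 together took a median of 0.366% of the scaled counts, and 2.06% in the A/J male cortex library titled low, the highest of 43.

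To compare genes with each other, CPM was divided by the summed exon length in kilobases (kb). On this scale the median of Slc1a2 was 205 CPM per kb, above the medians of 14 of 20 endothelial genes and below those of 6, among them Cldn5 at 726 CPM per kb. Aldoc followed at 62.4 CPM per kb and Atp1b2 at 52.9 CPM per kb, each above 3 of the 20 endothelial medians. The other 7 members lay below all 20. Slc1a3 reached 22.5, Mlc1 19.9 and Gfap 10.6 CPM per kb, and Gja1 reached 9.27, Slc4a4 7.34, Aqp4 5.73 and Gjb6 2.78 CPM per kb.

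The members differed widely in how evenly they were spread over the 43 libraries. Gja1 was the steadiest, with a CV of 40.0% and a range from 29.4 to 210 CPM. Slc1a2 ran from 758 to 16674 CPM around a median of 2690. Slc1a3 ran from 48.0 to 1115 CPM, Aldoc from 53.4 to 1180 CPM and Atp1b2 from 86.8 to 657 CPM. All 4 of these and Gja1, Slc4a4 and Aqp4 were above 3 counts in every library. Mlc1 was also detected in every library but fell to 0.225 CPM in a 129S1/SvImJ female hippocampus library, with a median of 55.7 CPM. Gfap ranged from 0 to 239 CPM and was at 0 counts in 1 library. Gjb6, the scarcest member with a median of 7.44 CPM, was at or under 3 counts in 6 libraries and at 0 in 3 of them.

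Of the members, 8 have start sites in the RefSeq promoter table (GRCm38.p6), with 10 start sites between them. The 250 bases before the start are shown for Gfap and Slc1a2, because the estimates of these 2 genes had opposite signs between the regions. Gfap lies on the minus strand of chromosome 11, and its window is chr11:102897201-102897450. Slc1a2 lies on the plus strand of chromosome 2, and its window is chr2:102706188-102706437. Both windows lie inside the span that GENCODE M21 (GRCm38) gives the gene, from 102887336 to 102900912 for Gfap and from 102658659 to 102790784 for Slc1a2. Capitals mark CG dinucleotides.
Gfap: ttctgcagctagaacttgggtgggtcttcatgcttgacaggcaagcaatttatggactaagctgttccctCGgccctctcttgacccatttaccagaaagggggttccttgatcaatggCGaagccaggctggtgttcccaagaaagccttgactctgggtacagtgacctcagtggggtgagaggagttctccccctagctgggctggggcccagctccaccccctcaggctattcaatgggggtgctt
Slc1a2: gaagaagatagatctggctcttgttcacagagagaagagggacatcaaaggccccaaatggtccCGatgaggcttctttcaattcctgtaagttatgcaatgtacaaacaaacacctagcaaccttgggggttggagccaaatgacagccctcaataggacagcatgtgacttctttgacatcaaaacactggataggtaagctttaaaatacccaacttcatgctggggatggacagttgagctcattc
Both windows are poor in CG, with 2 in Gfap and 1 in Slc1a2, and 81.2% and 92.1% of all 32851 promoters in the table hold at least as many. One of the 2 start sites of Slc4a4 stands apart from the other members with 44 CG. The letters TTCNNNGAA, sought on both strands, occur in neither window shown but in 2 of the 10 member windows (Slc1a3 and 1 of the 2 of Aldoc), and in 7.02% of all promoters. A match of letters is a description of the window and not a binding site.

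Between the regions, Gfap was the member called by the test without covariates. It ranged in cortex from 0 to 179 CPM with a median of 20.5 (n = 21) and in hippocampus from 18.3 to 239 CPM with a median of 86.2 (n = 22). The ranges overlapped, with the hippocampal median well above the cortical one. The fit over all genes gave Gfap a log2 fold change of 1.61 (SE 0.347, adjusted p = 0.0229, edgeR quasi-likelihood test), which is 3.05-fold higher in hippocampus. It was the 1 member called of 10, where 0.0755% of all genes tested were called.

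The call on Gfap depends on which strains are in the fit, while its direction does not. Leaving out A/J, CAST/EiJ, DBA/2J or NOD/ShiLtJ gave log2 fold changes between 1.55 and 1.64 and adjusted p-values of 0.0904, 0.158, 0.0977 and 0.117. Without A/J, Slc1a2 was the member called instead, at -0.87 (adjusted p = 0.0463). In male libraries alone Gfap was 1.80 higher on the log2 scale (adjusted p = 0.0149), and in female libraries alone 1.31 (SE 0.610, adjusted p = 0.687). The difference between the sexes in this contrast was -0.48 (SE 0.682), below its error.

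The glutamate transporters had estimates of the opposite sign. Slc1a2 ranged in cortex from 862 to 16674 CPM with a median of 3583, and in hippocampus from 758 to 8252 CPM with a median of 2108. Its log2 fold change was -0.92 (SE 0.218), and its adjusted p of 0.0647 missed the threshold. Slc1a3 had medians of 208 CPM in cortex and 143 CPM in hippocampus, and a log2 fold change of -0.62 (SE 0.222, adjusted p = 0.659). With strain, sex and tag as covariates 3 members were called, Gfap at 1.71 (adjusted p = 0.0041), Slc1a2 at -0.98 (SE 0.116, adjusted p = 1.0e-07) and Slc4a4 at -0.86 (adjusted p = 0.011), where 44 of 25276 genes were called.

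Most other members had negative estimates, hippocampus over cortex, without passing the test. Their log2 fold changes were -0.87 for Mlc1, -0.76 for Slc4a4, -0.65 for Aldoc, -0.52 for Atp1b2, -0.52 for Aqp4 and -0.36 for Gjb6. The medians of Gjb6, 6.14 CPM in cortex and 8.34 CPM in hippocampus, lay the other way from its estimate. The connexin 43 gene Gja1 had medians of 89.3 CPM in cortex and 101 CPM in hippocampus, and a log2 fold change of -0.01 (SE 0.183). In all, 9 of 10 estimates were negative with a median of -0.57 over the 10, against 0.03 over all genes tested. At an unadjusted p under 0.05 (edgeR) the region test held 7 of the 10 members and 1631 of 29120 genes.

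Some of the same libraries can be matched by title, alike but for the region word, in 19 pairs, which are no further samples. The labels do not say that the 2 libraries of a pair share a mouse. Gfap was higher in the hippocampal library in 17 of 19 pairs, with a median difference of 1.86 on the log2(CPM + 1) scale. Slc1a2 was lower in 18 of 19 pairs, by a median of -1.10 with a range from -2.24 to 0.41. Mlc1 and Slc4a4 were each lower in 17 pairs, Atp1b2 in 16, Slc1a3 in 15 and Aldoc in 14. Aqp4 was lower in 13 pairs, with differences from -2.77 to 4.10. Gjb6 was lower in 10 and higher in 8 pairs, with 1 pair equal. Gja1 was lower in 11 and higher in 8 pairs.

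**Figure D1:**
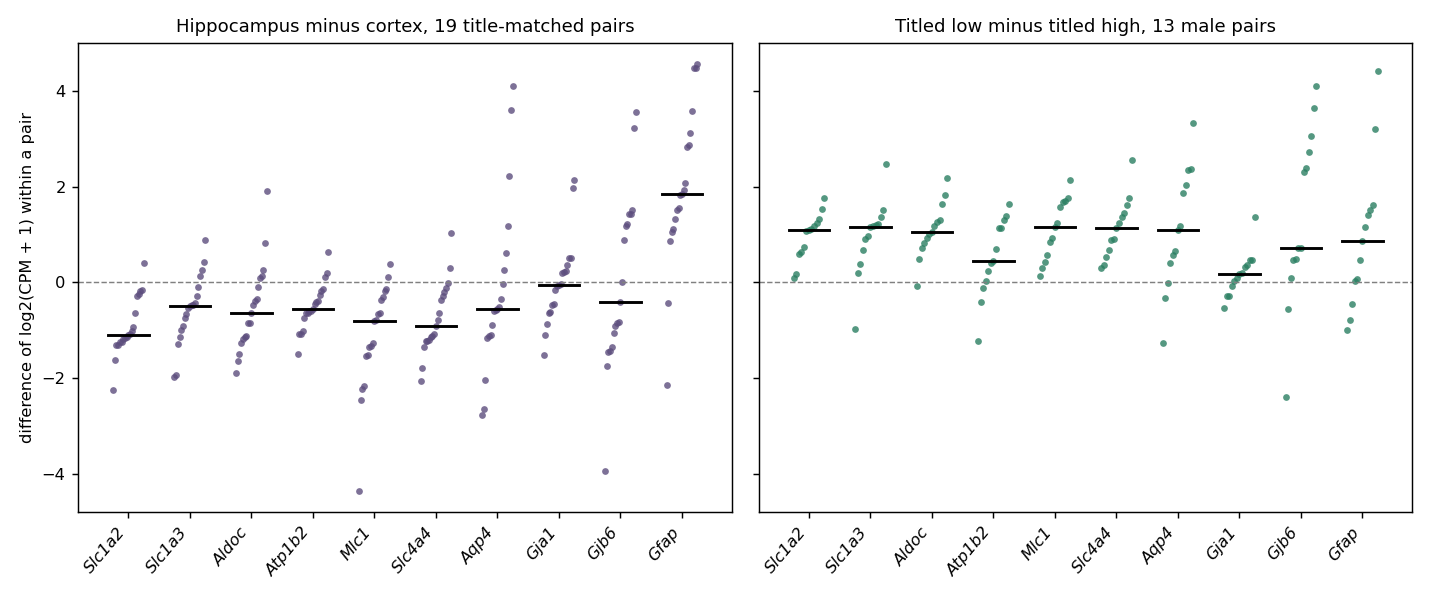
Difference of log2(CPM + 1) within title-matched pairs of libraries for each of the 10 transcripts, hippocampus minus cortex in 19 pairs at left and titled low minus titled high in 13 male pairs at right. Each point is 1 pair and each line the median. At left Gfap lies above 0 in 17 pairs and Slc1a2 below 0 in 18, and at right Slc1a2, Mlc1 and Slc4a4 lie above 0 in all 13.

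Other cell types were read from their marker lists. The endothelial list summed to between 12567 and 22899 CPM in cortex and between 14659 and 25132 CPM in hippocampus, with none of its 20 genes called. The neuronal list summed to a median of 177 CPM in cortex and 149 CPM in hippocampus, and the oligodendrocyte list to 55.9 and 114 CPM, with none called. In the neuronal list 5 of 6 estimates were negative, with a median log2 fold change of -0.68, and in the oligodendrocyte list 5 of 6 were positive, with a median of 0.67. In the microglial list 5 of 8 were negative, with a median of -0.42. The pericyte list had 7 of 10 positive, with a median of 0.10, and the smooth muscle list 4 of 5, with a median of 0.27. No gene of these lists was called. Of 20 other astrocyte genes, 1 was called, Kcnj10, the potassium channel gene, with a log2 fold change of -1.32 (SE 0.254, adjusted p = 0.0045). In that list 19 of 20 estimates were negative, with a median of -0.65. Fewer astrocyte fragments among the sorted cells and less of these transcripts per astrocyte cannot be told apart in bulk RNA, and the part of the other cell types was not tested.

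Ratios of 2 members were also taken within each library, where depth cancels except at low levels, at which the added 1 CPM weighs. Gfap over Aqp4, as a difference of log2(CPM + 1), averaged 1.33 ± 1.19 (SD, n = 22) in hippocampus and -0.93 ± 1.85 (SD, n = 21) in cortex. The difference of 2.26 is 4.78-fold, with a permutation p of 1e-05, the smallest that 100000 resamples can give, and an adjusted permutation p of 6e-05 over 6 ratio tests. Slc1a2 over Slc1a3 was lower in hippocampus by a difference of -0.37 on the log2 scale, from 4.03 ± 0.402 to 3.66 ± 0.475 (adjusted permutation p = 0.0251). Gjb6 over Gja1 differed by -0.03 (adjusted permutation p = 0.995). Within the 13 male libraries titled low, Gfap over Aqp4 was 2.75 higher in hippocampus (adjusted exact permutation p = 0.0017 over 3 ratios), and within the 14 titled high 1.45 higher (adjusted exact permutation p = 0.491). Slc1a2 over Slc1a3 differed by -0.33 and -0.18 in those 2 subsets and passed the threshold in neither.

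**Figure D2:**
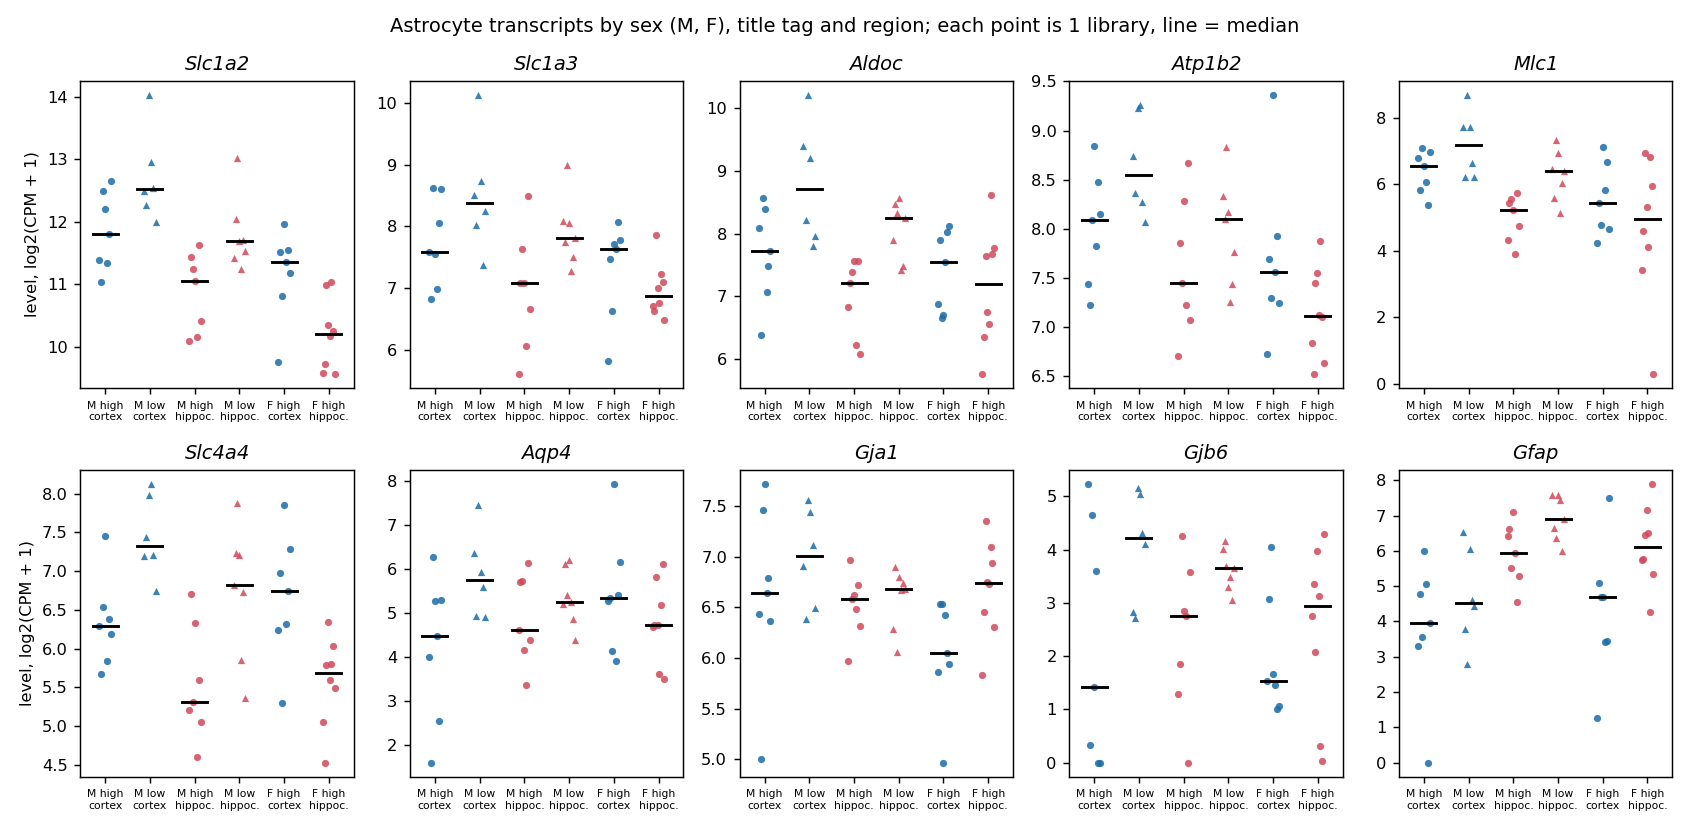
Level of each transcript as log2(CPM + 1) in male (M) and female (F) libraries by title tag and region, cortex in blue and hippocampus in red, with triangles for libraries titled low. Each point is 1 library and each line the median, and the only female library titled low is not drawn. In Gfap the hippocampal medians are the higher ones, and in Slc1a2, Aldoc, Mlc1 and Slc4a4 the medians titled low are above those titled high in males of the same region, with overlap.

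Between the title tags, in males, every member had a higher estimate in libraries titled low, and 4 passed the test. Aldoc ranged from 66.4 to 378 CPM with a median of 172 in the 14 libraries titled high and from 169 to 1180 CPM with a median of 303 in the 13 titled low. Slc4a4 ranged from 23.3 to 173 CPM with a median of 64.0 titled high and from 40.1 to 279 CPM with a median of 147 titled low. Slc1a2 ranged from 1089 to 6464 CPM with a median of 2645 titled high and from 2414 to 16674 CPM with a median of 4212 titled low. Mlc1 ranged from 14.02 to 137 CPM with a median of 49.6 titled high and from 34.4 to 413 CPM with a median of 86.9 titled low. For each of the 4 the lowest libraries titled low lay inside the range of those titled high.

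The log2 fold changes, low over high, were 1.12 for Aldoc (SE 0.230, adjusted p = 0.0039), 1.11 for Slc4a4 (SE 0.236, adjusted p = 0.0050), 1.05 for Mlc1 (SE 0.285, adjusted p = 0.0493) and 0.88 for Slc1a2 (SE 0.211, adjusted p = 0.0162). These 4 of 10 members were called where 1.06% of all genes tested were. An unadjusted p under 0.05 (edgeR) was found for 8 of the 10 members and 2233 of 27529 genes. Slc1a3, at 0.81 (SE 0.245), had an adjusted p of 0.104. Gfap was at 0.92 (SE 0.393, adjusted p = 0.458), Aqp4 at 0.82 (adjusted p = 0.420), Gjb6 at 0.80 (adjusted p = 0.651), Atp1b2 at 0.47 (adjusted p = 0.421) and Gja1 at 0.12 (adjusted p = 0.811). The median over the 10 was 0.85, against -0.04 over all genes tested.

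One library weighs on these calls. Without the A/J male cortex library titled low, 2 members were called, Aldoc at 0.88 (adjusted p = 0.018) and Slc4a4 at 1.05 (adjusted p = 0.012), while Slc1a2 was at 0.64 (adjusted p = 0.0996) and Mlc1 at 0.78 (adjusted p = 0.243). Leaving out all of A/J left Aldoc alone called, and Mlc1 lost its call without any 1 of 6 strains. Calls over all genes fell too, from 293 of 27529 with every male library to 132 of 26490 without A/J. Without the A/J male cortex library titled low they were 249 of 27343. DESeq2 called Aldoc, Mlc1 and Slc4a4 and gave Slc1a2 an adjusted p of 0.0962.

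Within a region the differences were of similar size and no member was called. In cortex, with 7 libraries titled high and 6 titled low, the log2 fold changes were 1.24 for Aldoc, 1.10 for Slc4a4, 1.01 for Mlc1 and 0.92 for Slc1a2. In hippocampus, with 7 of each, they were 1.04, 1.23, 1.35 and 0.95. Over both regions the adjusted p-values of these 4 genes lay between 0.0862 and 0.306, and 7 members in cortex and 6 in hippocampus had an unadjusted p under 0.05 (edgeR), as did 1446 of 22392 genes in cortex and 1224 of 24028 in hippocampus. A test of whether the tag difference itself differs between the regions called no member, where 0% of all genes were called by edgeR. At an unadjusted p under 0.05 it held 563 genes and 0 members. For Slc1a2 this interaction was 0.06 (SE 0.340) and for Aqp4, the largest in size, -0.97 (SE 0.662).

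In 13 male pairs with titles alike but for the tag, Slc1a2, Mlc1 and Slc4a4 were higher in the library titled low in all 13. Slc1a3 and Aldoc were higher in 12, Gjb6 in 11, Aqp4, Gfap and Atp1b2 in 10 and Gja1 in 9. The median difference was 1.10 for Slc1a2, 1.15 for Mlc1 and 1.14 for Slc4a4 on the log2(CPM + 1) scale.

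Markers of other cells moved with the tag too. The endothelial list summed to between 15818 and 24333 CPM titled high and between 14659 and 19887 CPM titled low, with 18 of 20 estimates negative. Of its genes 4 fell, among them Cldn5, the tight junction gene, at -0.96 (SE 0.146), and 1 rose. Pecam1 had medians of 944 and 856 CPM. The neuronal list summed to between 34.5 and 449 CPM titled high and between 171 and 521 CPM titled low, with Snap25 called higher. All 6 of its estimates were positive, with a median of 0.92. The oligodendrocyte list summed to between 14.7 and 156 CPM and between 31.4 and 188 CPM, with 1 gene called higher. All 6 of its estimates were positive too, with a median of 1.06, against 0.85 over the 10 members. The pericyte list had median sums of 3677 and 6590 CPM, with Rgs5 called higher at 0.82, while 7 of its 10 estimates were negative with a median of -0.15. The microglial list had median sums of 24.4 and 20.6 CPM, with none called, while 6 of its 8 estimates were positive with a median of 1.16. Library totals had medians of 5678916 and 4604873 counts. The part of these other cells in the tag difference was not tested.

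Of the 20 other astrocyte genes, 3 were called and all were higher in libraries titled low, Clu at 1.01 (SE 0.199, adjusted p = 0.0025), Mt3 at 1.20 (SE 0.284, adjusted p = 0.0143) and S100b at 1.59. Of the 20 estimates 19 were positive, with a median of 0.72.

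Ratios of members within a library were also compared between the tags. Gfap over Aqp4 averaged 0.32 ± 1.92 (SD, n = 13) titled low and 0.32 ± 1.93 (SD, n = 14) titled high. Slc1a2 over Slc1a3 differed by 0.03 (adjusted permutation p = 0.995). Gjb6 over Gja1 was 1.35 higher titled low (adjusted permutation p = 0.0332), from -4.31 ± 1.79 to -2.96 ± 0.606, and this call was lost with a pseudocount of 5 CPM (0.63, adjusted permutation p = 0.125). All 6 libraries with Gjb6 at or under 3 counts are titled high. They include female hippocampus libraries of 129S1/SvImJ (0.0194 CPM) and WSB/EiJ (0.244 CPM), which are outside this male comparison.

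**Figure D3:**
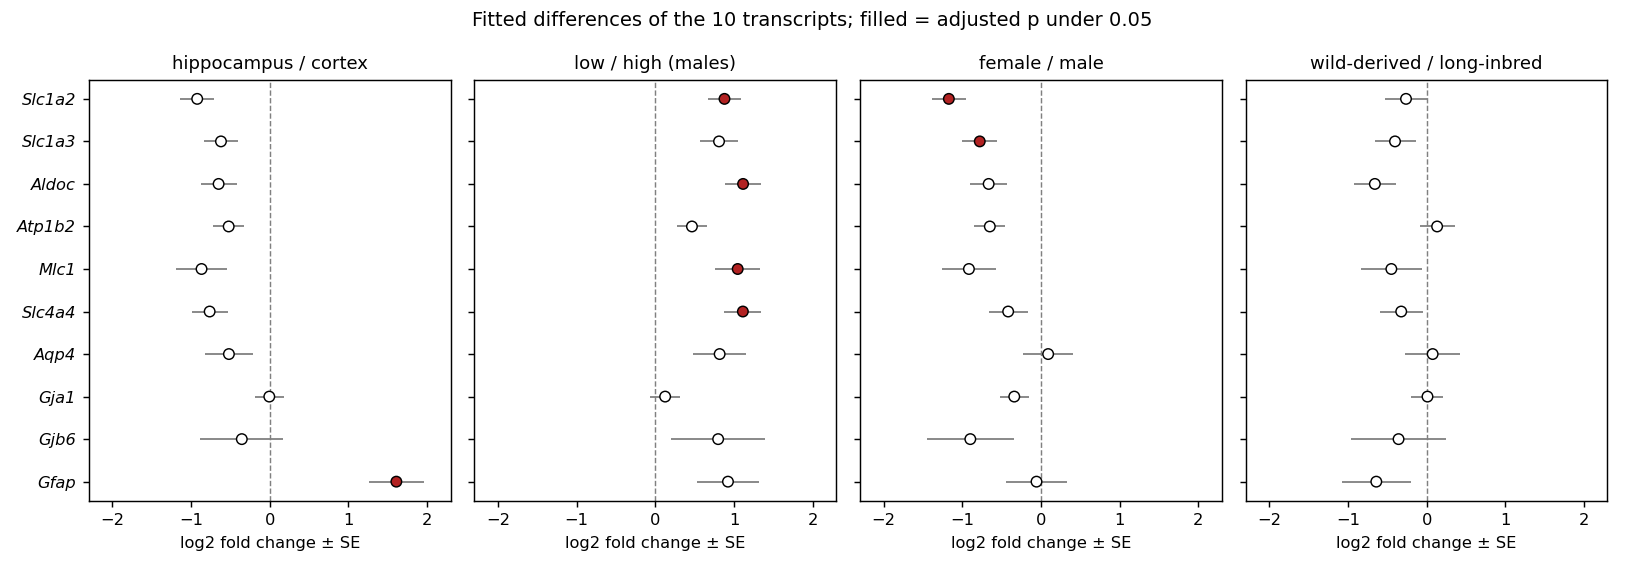
Log2 fold change with its standard error for each transcript in 4 comparisons, hippocampus over cortex, titled low over high in males, female over male, and wild-derived over long-inbred. Filled points have an adjusted p under 0.05. Gfap is filled at 1.61 in the first panel, 4 transcripts are filled on the positive side of the second, Slc1a2 and Slc1a3 are filled on the negative side of the third, and none is filled in the fourth.

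Between the sexes, both glutamate transporters were lower in females. Slc1a2 ranged from 758 to 3994 CPM with a median of 1914 in 16 female libraries and from 1089 to 16674 CPM with a median of 3320 in 27 male libraries. Slc1a3 ranged from 55.8 to 269 CPM with a median of 143 in females and from 48.0 to 1115 CPM with a median of 214 in males. The log2 fold changes, female over male, were -1.17 for Slc1a2 (SE 0.216, adjusted p = 0.00012) and -0.78 for Slc1a3 (SE 0.225, adjusted p = 0.0360). These were the 2 members called of 10, where 2.85% of all genes were called. An unadjusted p under 0.05 (edgeR) was found for 5 of the 10 members and 3818 of 29120 genes. Atp1b2, at -0.65 (SE 0.196), had an adjusted p of 0.0503.

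Sex and tag are entangled in this design. Among the 29 libraries titled high, 15 female and 14 male, no member was called by edgeR and 1 had an unadjusted p under 0.05, where 448 of 25862 genes were called and 3345 had an unadjusted p under 0.05. There Slc1a2 was at -0.74 (SE 0.216, adjusted p = 0.0647) and Slc1a3 at -0.38 (SE 0.237, adjusted p = 0.438). Without the A/J male cortex library titled low, Slc1a2 stayed called (adjusted p = 0.00026) and Slc1a3 was at -0.59 (adjusted p = 0.109). Depth and composition moved with sex as well. Totals ran from 2731954 to 49372356 counts in females and from 1626534 to 10567966 in males. The genes Gm23935, Gm42418 and Gm26917 together took from 1.59% to 12.1% of counts in females and from 12.97% to 29.3% in males. Of the 20 endothelial genes 3 were called, all higher in females, Egfl7 at 1.18, Esam at 0.61 and Itm2a at 0.58, with a median of -0.02 over the 20. The microglial list had 7 of 8 and the neuronal list 4 of 6 estimates positive, with none called in either. The part of depth, composition and these other cells in the difference was not tested.

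Aqp4 and Gfap gave estimates near 0 between the sexes, 0.09 (SE 0.320) and -0.06 (SE 0.388). The other 6 members were between -0.34 for Gja1 and -0.92 for Mlc1 without passing. Of the 20 other astrocyte genes, 5 were called, all lower in females, with Clu at -1.12 (adjusted p = 0.00023) and Acsbg1 at -1.17 (adjusted p = 0.0134) at the smallest p. The median was -0.66 over the 10 members and -0.12 over all genes tested. With at least 1 CPM in 5 libraries the median over all genes tested was 0.14. Of all genes, 745 were called higher and 85 lower in females. Under the size factors of DESeq2 these were 430 and 155. The background then moved to -0.24, and Slc1a2, Slc1a3 and Atp1b2 were then called lower in females.

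The regional difference was compared between the sexes as an interaction, which called no member, where 0.00343% of all genes were called. At an unadjusted p under 0.05 (edgeR) it held 1 member and 1077 of 29120 genes. The member with the largest ratio of estimate to error was Gja1, at 1.09 (SE 0.350, adjusted p = 0.99994). Its medians were 62.7 CPM in female cortex and 106 CPM in female hippocampus (n = 8 each), and 110 CPM in male cortex (n = 13) and 99.2 CPM in male hippocampus (n = 14).

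Among the 7 strains, 2 members were called, Slc1a3 (adjusted p = 0.0023) and Slc1a2 (adjusted p = 0.0494), where 2.68% of all genes were. An unadjusted p under 0.05 (edgeR) was found for 8 of the 10 members and 3107 of 29120 genes. A/J had the highest median of 7 of the 10 members. Its 5 libraries held Slc1a2 at 2027 CPM in female hippocampus, 2433 and 5741 CPM in male hippocampus and cortex titled high, and 8252 and 16674 CPM in male hippocampus and cortex titled low. The same libraries, in the same order, held Slc1a3 at 233, 197, 392, 509 and 1115 CPM. In both genes the 2 A/J libraries titled low stood above every library of the other 6 strains, and the other 3 lay within their range.

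**Figure D4:**
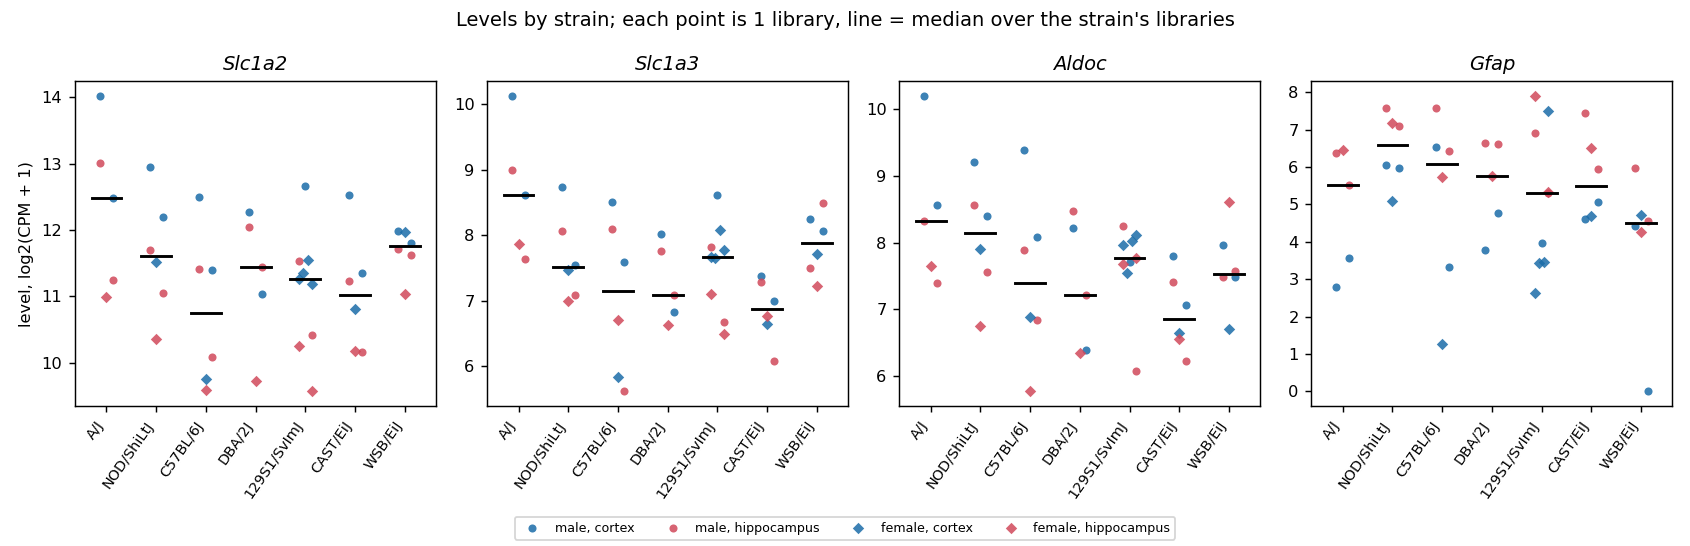
Level as log2(CPM + 1) of Slc1a2, Slc1a3, Aldoc and Gfap in the 7 strains, cortex in blue and hippocampus in red, males as circles and females as diamonds. Each point is 1 library and each line the median of the strain. The highest point for Slc1a2, Slc1a3 and Aldoc is the A/J male cortex library titled low, and Gfap is at 0 in 1 WSB/EiJ male cortex library.

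The order of strain medians for Slc1a2 ran from A/J at 5741 CPM through WSB/EiJ at 3472, NOD/ShiLtJ at 3122, DBA/2J at 2775, 129S1/SvImJ at 2465 and CAST/EiJ at 2108 to C57BL/6J at 1890 CPM. Every neighbour in that order overlapped the next in range. For Slc1a3 the order ran from A/J at 392 CPM through WSB/EiJ at 237, 129S1/SvImJ at 202, NOD/ShiLtJ at 181, C57BL/6J at 148 and DBA/2J at 134 to CAST/EiJ at 117 CPM. CAST/EiJ, at 66.3 to 165 CPM, was the 1 strain whose Slc1a3 range lay wholly below that of A/J, at 197 to 1115 CPM. Gfap had its highest strain median in NOD/ShiLtJ at 101 CPM and its lowest in WSB/EiJ at 21.6 CPM, with an adjusted p of 0.726. These orders pool sexes and tags, whose mix differs between strains. In males alone A/J still ranked 1 for Slc1a2 and Slc1a3. There C57BL/6J ranked 3 and 129S1/SvImJ 5 for Slc1a3, and WSB/EiJ ranked 4 for Slc1a2.

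The calls among strains rest on 1 library. Without the A/J male cortex library titled low, the adjusted p was 0.186 for Slc1a3 and 0.733 for Slc1a2, and no member was called. Slc1a3 was called in each of the other 9 fits that left out 1 library of A/J or DBA/2J. The call of Slc1a2 was lost in 4 of those 9, and DESeq2 gave it an adjusted p of 0.314. With region, sex and tag as covariates, Aldoc and Atp1b2 were called beside both transporters, where 871 of 25276 genes were called. A/J and DBA/2J have no female cortex library, so that strain, sex and region are not balanced. Markers of other cells differed among strains too, with 9 of 20 endothelial, 5 of 10 pericyte and 1 of 6 neuronal genes called and none of the microglial and oligodendrocyte lists, and their part in the calls of the members was not tested. Of the 20 other astrocyte genes, 4 differed among strains, with Glul (adjusted p = 6.9e-08) at the smallest p.

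Between the origins no member was called, where 0.749% of all genes were. The estimate farthest from 0 among the members, wild-derived over long-inbred, was that of Aldoc at -0.66 (SE 0.266, adjusted p = 0.463), with medians of 173 CPM in 12 wild-derived and 237 CPM in 31 long-inbred libraries. The same test without adjustment put 1 of the 10 members and 2041 of 29120 genes under 0.05, and DESeq2 also called no member. Slc1a2 was at -0.26 (SE 0.271) and Gfap at -0.64 (SE 0.436). The median over the 10 was -0.34, and that over all genes tested was -0.38. The latter depended on the filter, and was -0.08 with at least 1 CPM in 5 libraries. Of the 20 other astrocyte genes, 2 were called lower in wild-derived mice, Sox9 at -1.28 (adjusted p = 0.0116) and Glul at -0.69 (adjusted p = 0.0221).

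The 10 members did not vary as 1 block. Over the 43 libraries, 25 of the 45 pairs of members had an adjusted permutation p of Pearson's r under 0.05, and all 25 were positive. Spearman's rho passed in 26. Slc1a2 and Slc1a3 were the closest pair, with r = 0.88 and rho = 0.84 (adjusted permutation p = 3.75e-05 for both), and r was 0.85 without the 2 libraries farthest from the median of Slc1a2. Slc1a2 and Atp1b2 followed with r = 0.84 and rho = 0.85.

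Grouped after their values were seen, Slc1a2, Slc1a3, Aldoc, Atp1b2, Mlc1 and Slc4a4 had r between 0.60 and 0.88 in all 15 of their pairs. Among 27 male libraries these 15 ran from 0.68 to 0.90, among 21 cortex libraries from 0.50 to 0.90 and among 22 hippocampus libraries from 0.52 to 0.86. Among 16 female libraries they ran from 0.12 to 0.84, with 6 past the threshold. Of all 45 pairs 9 passed in females, 8 positive and 1 negative, Gjb6 with Mlc1 (r = -0.62, adjusted permutation p = 0.0417), whose rho of -0.58 did not pass (adjusted permutation p = 0.0844).

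Aqp4 was related to those 6 at r between 0.47 and 0.55. Gja1 had r between 0.16 and 0.49 with the other 9, with 4 pairs past the threshold. Gjb6 had r between 0.04 and 0.23 with the other 9 and Gfap between -0.18 and 0.19, with no pair of either past the threshold. Within cortex its r ran from 0.05 to 0.33 and within hippocampus from 0.10 to 0.44, so that the values below 0 appeared where both regions were pooled, and within the 13 male libraries titled low it ran from -0.68 to -0.27, with 1 pair past the threshold. Libraries differ in depth and may share mice, which the labels do not give.

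**Figure D5:**
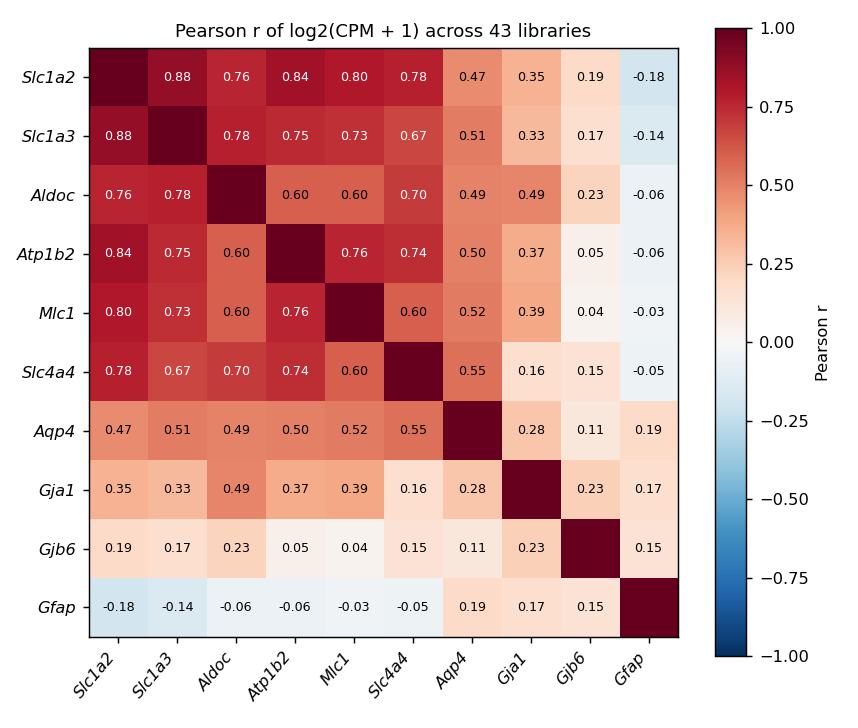
Pearson's r of log2(CPM + 1) between each 2 of the 10 transcripts across 43 libraries, red for positive and blue for negative. The 6 transcripts at upper left lie between 0.60 and 0.88 with each other, and the row of Gfap lies between -0.18 and 0.19.

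The genes whose level followed the members most closely were sought among 10639 other genes with a mean of at least 5 CPM. The 10 with the highest r to the mean log2(CPM + 1) of the members over 43 libraries were Clu (0.87), Scd2 (0.86), Ttyh1 (0.83), Ndrg2 (0.83), Chst2 (0.83), Ntrk2 (0.81), Ncan (0.80), Gpm6b (0.79), Cpe (0.79) and Scg3 (0.78). Clu encodes clusterin and is in the list of 20 other astrocyte genes. That list had r between 0.18 and 0.87 with a median of 0.58, against a median of -0.02 over all 10639. As a description across libraries, the mean log2 level of the members had r = -0.26 with that of the endothelial list, 0.17 with the pericyte, 0.27 with the neuronal, 0.29 with the microglial and 0.08 with the oligodendrocyte list. Within males and within females r was -0.11 and 0.67 with the pericyte, 0.24 and 0.34 with the neuronal, 0.50 and 0.38 with the microglial, 0.22 and -0.03 with the oligodendrocyte and -0.26 and -0.24 with the endothelial list, and the difference between the sexes was not tested.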

How the data were processed

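The authors sequenced ribosomal RNA-depleted total RNA (SMARTer stranded Pico input kit) and aligned reads to mm10. Per the labels, the submitters' notes name HISAT2 2.1.0, SAMtools 1.9 and featureCounts of Subread 1.4.4. The deposited table holds raw counts per gene for 43 libraries, with no normalization. Reads were not analysed here.

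Groups came from titles and characteristics. The members, marker lists and tests were chosen with earlier results of these data known. All 10 members are named in every comparison. The other genes named are the 2 of smallest p in each direction among 20 other astrocyte genes, and the 10 genes of highest r with the members. S100b, Kcnj10, marker genes of other cells, and the 6 members that varied together were named after their values were seen. Some genes that these rules name are not reported here.

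Counts were scaled by TMM and tested with edgeR 4.0.16 (R 4.3.3) by the quasi-likelihood test, two-sided, with trended dispersion, no covariates, and Benjamini-Hochberg adjustment over all genes tested at 0.05. DESeq2 1.42.0 was an alternative. Fits with covariates dropped genes where some fitted value was over 5 times anything observed. The programs were tested on simulated data. Permutation tests were two-sided, with 100000 resamples (exact with under 10 libraries in a group), on log2(CPM + 1) with a pseudocount of 1 CPM, in Python 3.11.15. Exon lengths and positions came from GENCODE M21 (GRCm38). The floor of 3 counts covers counting error only.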

Additional observations from a re-analysis of the deposited data

Results flagged for a closer look

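Within strains, 4 values lay far from the other libraries of their strain. The gap to the nearest other library, as a share of the whole range on the log2(CPM + 1) scale, passed Dixon's critical value, at 0.713, 0.505, 0.717 and 0.677 in the order given here. On the CPM scale 1 of the 4 passed, Aldoc, at 0.504. Gfap was at 0 CPM in the WSB/EiJ male cortex library titled high, against 18.3 to 62.4 CPM in the other 5 libraries of the strain. Gja1 was at 29.4 CPM in the 129S1/SvImJ female cortex library titled low, against 60.4 to 121 CPM in the other 8, and at 30.3 CPM in the WSB/EiJ female cortex library titled high, against 89.3 to 136 CPM in the other 5. Aldoc was at 66.4 CPM in the 129S1/SvImJ male hippocampus library titled high, against 186 to 303 CPM in the other 8. Over 70 groups tested, chance at 1 in 20 gives 3.5 such flags, and 4 were seen.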

How the results depend on the processing

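Of 610 alternative values for single members between regions, title tags, sexes and origins, 516 kept their sign and their side of the threshold, 34 lost the call, 21 gained one, and 39 changed sign without being called on either side. No called value changed sign. Among strains, over 16 alternatives, Slc1a2 was called in 8 and Slc1a3 in 15. The cause of the changes below was not tested unless stated.

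Between regions, where 1 member was called, 2 were called with no filter, 3 with additive covariates, 2 without the numbered 129S1/SvImJ titles and 0 in females alone, and leaving out 1 strain gave 0 to 1. Between title tags, where 4 were called, 0 were called in cortex alone and 0 in hippocampus alone, with fewer libraries, and leaving out 1 strain or the A/J male cortex library titled low gave 1 to 6. Among strains, where 2 were called, 1 was called with the size factors of DESeq2, 1 with DESeq2, 1 with at least 1 CPM in 5 libraries, 5 with no filter, 4 with additive covariates and 4 in males alone, and leaving out 1 library gave 0 to 4. Between sexes, where 2 were called, 0 were called among libraries titled high, and leaving out strains or that library gave 1 to 3.

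With a replicate block made of title-matched pairs, 4 members were called between regions (Gfap, Slc1a2, Mlc1 and Slc4a4) and 6 between title tags (Aqp4, Slc1a2, Slc1a3, Aldoc, Mlc1 and Slc4a4). Deviations were taken from the mean of libraries of the same sex, region and tag. Those of paired libraries correlated at r from -0.0062 to 0.51 over 19 region pairs, with 14 over 0.1. Over 13 tag pairs r ran from 0.056 to 0.36, with 8 over 0.1. Strain was left in these deviations and is the same within a pair, so the values cannot tell a shared mouse from a shared strain. For 129S1/SvImJ females titled high, deviations were taken from their own regional means. Across regions, r was -0.08 for the unnumbered titles and -0.06 for those numbered 3. Hippocampus held only 2 such libraries, whose deviations mirror each other, so these r values are not separate checks. The labels name no shared mouse.

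Gfap over Aqp4 between regions was 1.45 in males titled high and no longer passed. Between tags it was 0.17 with a pseudocount of 0.1 and 0.54 in hippocampus, with the sign reversed and no call. Slc1a2 over Slc1a3 between regions was -0.18 in males titled high and -0.33 in males titled low, and did not pass. Slc1a2 over Slc1a3 between tags was -0.035 in hippocampus, reversed and not called. Gjb6 over Gja1 between regions was 0.074 with a pseudocount of 0.1 and 0.30 in males titled high, reversed and not called. Between tags it was 0.63 with a pseudocount of 5, 1.50 in cortex and 1.19 in hippocampus, and did not pass. Of 45 correlations, 9 passed in females, and in each of 10 further random draws, and 15 among libraries titled high.

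Over all genes, the 22 called between regions became 55 with DESeq2, 44 with covariates, 48 with the block, 37 without the numbered titles, 7 in females and 11 without NOD/ShiLtJ. The 293 between tags became 640 with DESeq2, 550 with covariates, 580 with the block, 27 in cortex, 5 in hippocampus and 124 to 407 with 1 strain left out. The 781 among strains became 1315 with DESeq2, 926 of 31219 with no filter, 871 of 25276 with covariates and 474 in males. The 830 between sexes became 448 among libraries titled high. The 218 between origins became 395 with DESeq2 and 123 in males. Gjb6 was at 0 counts in 3 libraries and Gfap in 1. A count of 3 corresponded to 0.0537 to 1.84 CPM, and the part of depth in those zeros was not tested.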
